A study of Mus musculus with 21 samples.

Results

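Fos-high brain endothelial cells were studied in a single-cell RNA library of C57BL/6J mouse brain endothelium and set against Fos-0 cells of the same library. Cells were kept when they had at least 500 genes, at most 10% of UMIs (unique molecular identifiers, which count captured transcripts) from mitochondrial genes, and at least 1 UMI of Cldn5, a tight junction protein of the blood-brain barrier. Of 9405 barcodes, 8448 passed. Fos-high cells were chosen by their own Fos and Fosb values: at least 20 UMIs of the pair per 10000 UMIs of the cell, with 0 UMIs of Gkn3 and Bmx (arterial), Ackr1 and Lcn2 (venous) and Plvap (fenestrated vessels). They numbered 928. The Fos-0 cells had 0 UMIs of Fos, Fosb and the same 5 genes, and numbered 4462. A further 1610 cells without the 5 genes lay between, and 278 cells reached the threshold but held a UMI of the 5 genes.

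Mice were aged 2 to 4 months, and nothing in the labels gives their number. After perfusion, tissue was digested with collagenase, dispase and DNase at 37 °C for 60 min, and live (7-AAD-) CD31+ PDGFRβ- CD45- cells were sorted; myelin was removed from brain alone. Bulk RNA was sequenced from endothelial cells prepared the same way from brain, lung and liver, with 3 libraries per tissue; ATAC-seq libraries of the series were not analysed here. The Fos-high and Fos-0 cells shared the mouse strain, tissue, digestion, sort and library, so no treatment separates them. With 1 single-cell library there is no replicate: cells are not replicates, no p-value is given for them, and the intervals cover counting error only.

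Fos and Fosb proteins pair with Jun proteins to form AP-1, a transcription factor. Their genes are immediate-early genes: growth factors, shear stress, heat and cell stress switch them on through kinases and pre-made factors, with no need for new protein, and their transcripts are short-lived. In endothelium the same stimuli act on Egr, Klf and Nr4a factors and on inhibitors that end the response, and enzymatic digestion of tissue is a known trigger.

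The values that chose the cells are given as a description. Fos + Fosb ran from 20.0 to 326 UMIs per 10000 in Fos-high cells, with a median of 50.1. Fos had a median of 28 UMIs per cell (10th to 90th percentile 11 to 81.3) and Fosb a median of 7 (0 to 22). Both transcripts were present in 830 of 928 cells, 95 cells had no Fosb UMI and 3 had no Fos UMI. The call rested on many molecules in most cells: 776 had at least 20 UMIs of the pair and 6 had at most 5. No gap separated the groups at the threshold: 96 cells lay just inside, at 20 to under 25 per 10000, and 116 just outside, at 15 to under 20. Jun was at 6064 CPM (UMIs per 1000000 of the group's summed UMIs) in the 96 cells just inside and at 4819 CPM in the 116 just outside, and the heat shock gene Hspa1a was at 6598 and 5538 CPM in those same sets.

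**Figure D1:**
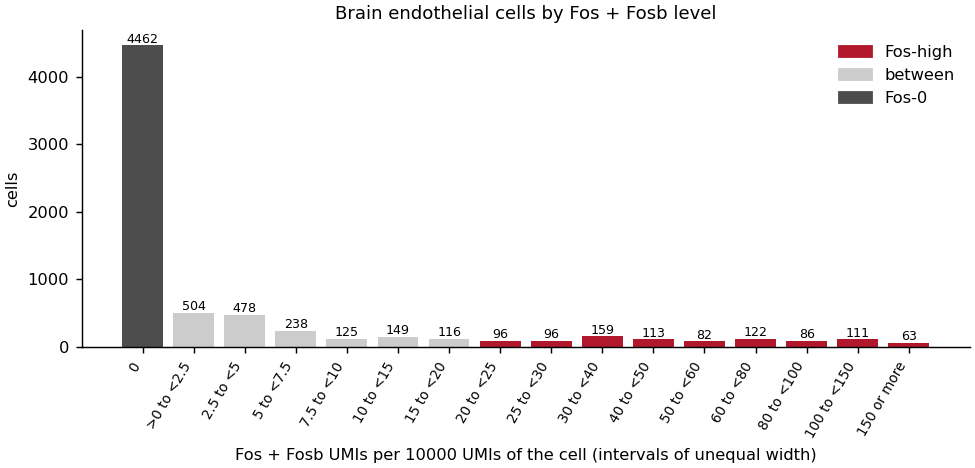
Cells without a UMI of the 5 excluded genes, counted by Fos + Fosb UMIs per 10000 (x axis, intervals of unequal width; y axis, number of cells), coloured as Fos-high, between and Fos-0. The 4462 Fos-0 cells form the tallest bar, and 96 cells just inside the threshold of 20 stand beside 116 just outside it.

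The endothelial label held for the group as a whole. A Pecam1 UMI was found in 98.2% of Fos-high cells and a Cdh5 UMI in 96.8%; Pecam1 was at 795 CPM in Fos-high cells and 930 CPM in Fos-0 cells. Defining markers of other cell types were near absent: Ptprc (leukocytes), Aqp4 (astrocytes) and Tmem119 (microglia) had 0 UMIs in both groups. The 12 mural genes summed to 118 CPM in Fos-high cells and 111 CPM in Fos-0 cells, with 7 of them under 5 CPM in both groups, and the 11 leukocyte genes to 1.61 and 0.928 CPM. Fos was also counted in the 239 barcodes with at least 50% hemoglobin UMIs, which should be red blood cells. At a median of 7851 UMIs, 9.62% of them held a Fos UMI and 0.837% reached the Fos + Fosb threshold. Of the 8448 filtered cells, at a median of 4573 UMIs, 35.5% held a Fos UMI and 14.3% reached the threshold. The amount of free RNA was not estimated, and its part in the Fos counts was not tested.

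Fos-high cells were deeper and differed in RNA composition. Their median was 7046 UMIs and 2618 genes per cell, against 3598 UMIs and 1808 genes in Fos-0 cells, and their sums were 6842189 and 17246466 UMIs. Mitochondrial genes took a median of 2.16% of UMIs in Fos-high cells and 2.85% in Fos-0 cells, ribosomal protein genes 8.42% and 4.56%, and Gm42418, a transcript that overlaps ribosomal RNA repeats, 0.129% and 0.972%. Over deciles of the 8448 cells by depth, the share at the Fos + Fosb threshold was 1.07% in the lowest and 40.2% in the highest. With cells thinned to 1700 UMIs, leaving out 779 shallower ones, it was 0 of 65 cells in the lowest decile, 0.829% in the next and 39.3% in the highest, so the trend was as large at equal counts. A count of 0 at the median depth of a Fos-0 cell allows up to 8.34 UMIs per 10000. Because depth moves with the grouping, a depth-matched set of 641 Fos-high and 1004 Fos-0 cells with 5000 to under 9000 UMIs (medians 6874 and 6020 UMIs), chosen after seeing the data, is given beside the results that turn on it; in it Gm42418 still took a median of 0.120% in Fos-high cells and 0.784% in Fos-0 cells.

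Among 6534 genes with at least 20 CPM over all filtered cells, 102 (1.56%) were at least 2-fold higher in Fos-high cells and 111 (1.70%) at least 2-fold lower; "higher" and "lower" below mean past that fold, without a replicate check. The minimum was taken over all filtered cells, so a gene could pass it through the cells where it was high. Gm26802, Fam71a, Gem and Egr3, among the largest ratios, were at 0.348, 1.39, 5.91 and 6.49 CPM in Fos-0 cells. Fbln5 counted as higher at 4.68 CPM in Fos-high and 2.15 CPM in Fos-0 cells, under the minimum in both groups. The median log2 ratio, Fos-high over Fos-0, was -0.16. Of the 102 higher genes, 45 belonged to 5 lists of early-response and heat shock genes, and so did 16 of the 25 with the largest ratios. These lists held 6, 18, 27, 10 and 17 of the 6534 tested genes. They were chosen with earlier results of these data known, so the counts are a description and not a test. In the depth-matched set 92 genes were higher and 77 lower, and 86 and 64 of these were among the 102 and 111.

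**Figure D2:**
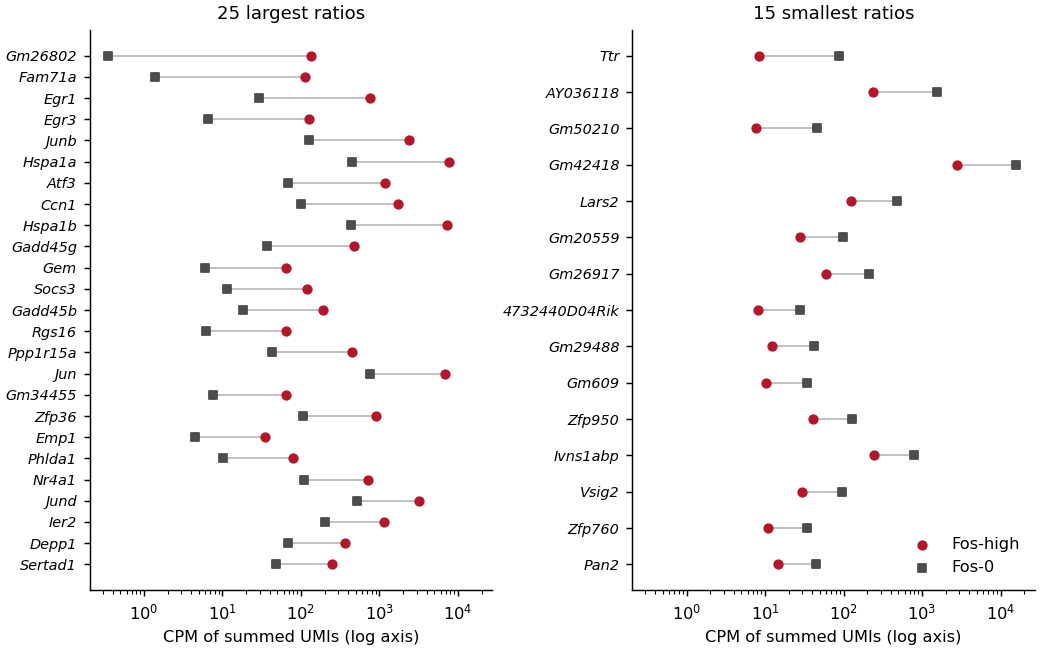
CPM of summed UMIs (log axis) in Fos-high cells (circles) and Fos-0 cells (squares) for the 25 genes with the largest ratio and the 15 with the smallest. Egr1 stood at 756 and 28.9 CPM and Hspa1a at 7698 and 442 CPM, whereas Gm42418 stood at 2776 and 15873 CPM.

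The partners of Fos within AP-1 were far more abundant in Fos-high cells. Of the 11 genes of the AP-1 list, 6 apart from Fos and Fosb passed the level minimum, 4 of these were higher and none was lower, with a median log2 ratio of 2.89. Jun, the main partner of Fos, was at 6884 CPM in Fos-high cells and 759 CPM in Fos-0 cells, a ratio of 9.07 (95% counting interval 8.90 to 9.25). Per cell, Jun had a median of 60.1 UMIs per 10000 in Fos-high cells (10th to 90th percentile 16.6 to 131) and 4.99 in Fos-0 cells (90th percentile 15.8), so the 10th percentile of Fos-high cells lay above the 90th percentile of Fos-0 cells. Junb, which can also restrain Jun, was at 2380 CPM in Fos-high cells and 128 CPM in Fos-0 cells, a ratio of 18.7 (17.9 to 19.5). Atf3, a stress-induced repressor that pairs with Jun, was at 1189 and 68.5 CPM (ratio 17.3, 16.3 to 18.5). Jund, the more steadily expressed member, was at 3149 and 516 CPM (ratio 6.10, 5.95 to 6.25). The remaining members stayed within 2-fold or were scarce. Fosl2 was at 119 CPM in Fos-high cells and 97.9 CPM in Fos-0 cells, Jdp2 at 33.6 and 24.1 CPM, Batf at 5.70 and 5.62 CPM and Fosl1 at 1.75 and 0.232 CPM. Batf3 had no UMI in either group.

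Other immediate-early transcription factors were higher in 14 of 18 tested genes, none was lower, and the median log2 ratio was 1.49. Egr1, a zinc finger factor induced by growth factors and shear stress, was at 756 CPM in Fos-high cells and 28.9 CPM in Fos-0 cells (ratio 26.2, 23.9 to 28.7). An Egr1 UMI was found in 64.8% of Fos-high cells and 5.54% of Fos-0 cells, so a good part of the Fos-high cells carried none. Egr3 was at 127 and 6.49 CPM (ratio 19.5) and the orphan nuclear receptor Nr4a1 at 710 and 110 CPM (ratio 6.46, 6.13 to 6.82). Ier2 was at 1147 and 202 CPM, and Cebpb at 40.2 and 9.92 CPM (ratio 4.05; 6.50 in the depth-matched set). The flow-responsive factors Klf2 and Klf4, which are abundant in quiescent endothelium, were at 4140 and 2090 CPM in Fos-high cells, against 1782 and 892 CPM in Fos-0 cells.

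A list of feedback inhibitors, mRNA decay factors and stress-induced genes had 15 of 27 tested genes higher and none lower (median log2 ratio 1.14). Not all of the 15 limit the response: Gadd45a, Gadd45b, Gadd45g, Sgk1, Ier3 and Rhob are stress, survival or cytoskeletal genes. Zfp36 (tristetraprolin), which binds AU-rich transcripts such as Fos and hastens their decay, was at 904 CPM in Fos-high cells and 107 CPM in Fos-0 cells (ratio 8.44, 8.01 to 8.89). Socs3, an inhibitor of cytokine receptor signalling, was at 121 and 11.3 CPM (ratio 10.7). Gadd45g and Gadd45b, stress sensors that can activate p38 and JNK signalling, were at 474 and 190 CPM in Fos-high cells, against 37.1 and 18.0 CPM in Fos-0 cells. Ppp1r15a (GADD34), which restores translation after stress, was at 441 and 42.2 CPM. The MAP kinase phosphatase Dusp1 and the antiproliferative gene Btg2, named here after their values were seen, were at 2648 and 1654 CPM in Fos-high cells, against 559 and 458 CPM in Fos-0 cells. Upstream kinases and the factors they act on, where tested, did not share the pattern. Of 25 genes 21 were tested and none was past 2-fold in either direction. The ratios ran from 0.564 for Mapk8 (JNK1) to 1.27 for Hras. Srf, a factor under the level minimum, was at 17.6 CPM in Fos-high and 8.77 CPM in Fos-0 cells of the depth-matched set (ratio 2.00, 1.40 to 2.88). Elk1, Mapk7 and Mrtfa, also under the minimum, had ratios of 0.768, 0.722 and 1.03 there.

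Among secreted and surface early-response genes 5 of 10 tested genes were higher and none was lower. Ccn1, a matrix-bound integrin ligand, was at 1713 CPM in Fos-high cells and 99.4 CPM in Fos-0 cells (ratio 17.2, 16.4 to 18.1). Edn1, the vasoconstrictor endothelin-1, was at 449 and 138 CPM, the growth factor Hbegf at 201 and 66.4 CPM, and Apold1, an endothelial early-response gene, at 1344 and 501 CPM. Ccn2, a close relative of Ccn1, was at 148 CPM in Fos-high cells and 144 CPM in Fos-0 cells. The NF-κB and leukocyte adhesion list was mixed. Of 13 tested genes, Cxcl1 alone was higher (75.1 and 15.2 CPM) and Vcam1 alone lower (23.1 and 70.9 CPM), and each had a UMI in few cells: Cxcl1 in 11.6% of Fos-high and 2.49% of Fos-0 cells, Vcam1 in 3.12% and 3.61%. Among 17 interferon response genes 1 was higher, Ifi27l2a, at 37.6 and 17.2 CPM; in the depth-matched set its ratio was 1.78 and none was past 2-fold.

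**Figure D3:**
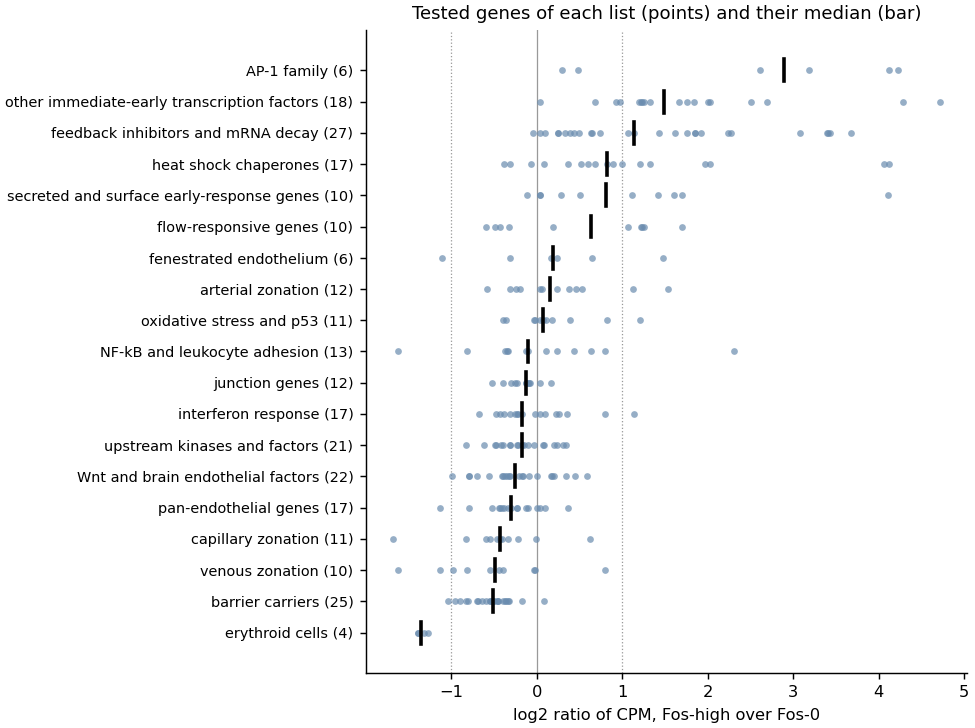
log2 ratio of CPM, Fos-high over Fos-0 (x axis), for the tested genes (points) of each list with at least 4 of them, and the list's median (bar); the number tested is in brackets and dotted lines mark 2-fold. The AP-1 list has a median of 2.89 and barrier carriers one of -0.52.

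Inducible heat shock genes accompanied Fos. Of 17 chaperone genes, 7 were higher and none lower, with a median log2 ratio of 0.82. Hspa1a and Hspa1b, a nearly identical pair that encodes the inducible Hsp70 and whose counts may be split between them, were at 7698 and 7199 CPM in Fos-high cells, against 442 and 431 CPM in Fos-0 cells. Their sum had a median of 137 UMIs per 10000 in Fos-high cells and 4.12 in Fos-0 cells, and 896 of the 928 Fos-high cells (96.6%) lay above the 90th percentile of Fos-0 cells (16.7). The small heat shock protein gene Hspb1 was at 7667 and 1951 CPM (ratio 3.93, 3.88 to 3.98), the Hsp70 co-chaperone Dnajb1 at 343 and 84.8 CPM, the inducible Hsp90 gene Hsp90aa1 at 1508 and 605 CPM and Hsph1 at 274 and 119 CPM. The constitutive Hspa8 was at 2718 CPM in Fos-high cells and 1799 CPM in Fos-0 cells, and Hsp90b1 of the endoplasmic reticulum at 498 and 620 CPM. In the depth-matched set 6 of the 17 were higher, as were 4 of the 6 AP-1 genes.

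Several higher genes lie next to a leading early gene in the RefSeq annotation. Gm26802, an unnamed locus with the largest ratio, neighbours Fosb; it was at 134 CPM in Fos-high cells and 0.348 CPM in Fos-0 cells (ratio 385, 176 to 1052). Fam71a neighbours Atf3 and was at 112 and 1.39 CPM (ratio 80.8, 53.9 to 127; 47.7 in the depth-matched set). Gm34455 neighbours Dusp1 and was at 63.9 and 7.48 CPM, and 1110038B12Rik neighbours Hspa1b and was at 60.8 and 12.7 CPM. The sources used here do not give strand use in counting, so counts of these neighbours and of the named early genes may not be separate.

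The promoter stretches below show elements through which early genes are known to be switched on, and were picked after the values were seen. Each is the 150 bases before the annotated start (RefSeq, GRCm38.p6), 5′ to 3′ on the gene's strand, with capitals for the cyclic AMP response element TGACGTCA, its core TGACG, which reads CGTCA on the other strand, or the CArG box of the serum response element. The last 2, of Ppp1r15a and Zfp36, each carry a full element close to the start.
Fos, chr12:85473740-85473889, plus strand: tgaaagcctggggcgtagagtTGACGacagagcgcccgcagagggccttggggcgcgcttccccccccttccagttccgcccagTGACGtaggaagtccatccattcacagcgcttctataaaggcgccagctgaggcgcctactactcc
Fosb, chr7:19310046-19310195, minus strand: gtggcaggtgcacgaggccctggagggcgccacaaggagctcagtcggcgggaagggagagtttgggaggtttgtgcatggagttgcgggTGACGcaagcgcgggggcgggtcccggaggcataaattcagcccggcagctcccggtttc
Atf3, chr1:191183334-191183483, minus strand: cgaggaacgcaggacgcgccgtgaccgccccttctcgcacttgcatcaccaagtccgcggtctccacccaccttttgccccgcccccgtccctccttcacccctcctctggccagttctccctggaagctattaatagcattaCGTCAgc
Nr4a1, chr15:101266696-101266845, plus strand: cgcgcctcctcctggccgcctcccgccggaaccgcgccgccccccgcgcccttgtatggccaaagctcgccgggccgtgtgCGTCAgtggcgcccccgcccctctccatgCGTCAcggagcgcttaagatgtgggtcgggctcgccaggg
Dusp1, chr17:26508473-26508622, minus strand: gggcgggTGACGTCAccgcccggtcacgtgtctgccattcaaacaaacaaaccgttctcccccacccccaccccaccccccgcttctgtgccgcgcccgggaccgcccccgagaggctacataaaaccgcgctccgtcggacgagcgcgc
Ppp1r15a, chr7:45526269-45526418, minus strand: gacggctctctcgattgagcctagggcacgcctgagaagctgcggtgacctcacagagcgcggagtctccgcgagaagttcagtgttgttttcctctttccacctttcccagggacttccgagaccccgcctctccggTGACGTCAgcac
Zfp36, chr7:28379229-28379378, minus strand: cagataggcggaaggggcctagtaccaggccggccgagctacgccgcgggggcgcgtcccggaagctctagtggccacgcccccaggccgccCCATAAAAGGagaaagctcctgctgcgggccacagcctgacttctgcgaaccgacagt

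Of the 102 higher genes with Fos and Fosb, 80 of 104 had a promoter in the table, 103 windows in all, each of 250 bases before and 50 after the start. Both strands were searched, and every TGACGTCA also counts as a core. TGACGTCA was in 6 of 103 windows (5.83%), against 3.31% of 6807 windows of tested genes and 1.79% of all 32851 windows. The core was in 50.5%, against 34.3% and 20.8%. The AP-1 site TGANTCA, with C or G at N, was in 3 windows (2.91%), against 3.47% of windows of tested genes and 5.20% of all windows. The CArG box was in 2 windows (1.94%, against 1.28% and 1.63%). The heat shock element was in 3 windows (2.91%, against 0.602% and 0.603%), a count too small to weigh. Windows of the same gene can overlap, so an element can count more than once. Elements farther from the start than these windows reach were not searched, so a low share does not mean that a gene lacks the element. These shares describe letters in a window and say nothing of factor binding.

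Barrier carriers had lower values in Fos-high cells, nearly all by less than 2-fold. Of 25 barrier carriers and receptors, 24 had a ratio below 1, against 67.8% of all tested genes, the median log2 ratio was -0.52, and Slco1a4 alone was past 2-fold. Slco1a4, an organic anion and drug carrier, was at 2128 CPM in Fos-high cells and 4387 CPM in Fos-0 cells (ratio 0.485, 0.477 to 0.494). Slco1c1, which carries thyroxine, was at 1235 and 2311 CPM, the glucose carrier Slc2a1 at 2269 and 3002 CPM, and the drug efflux pump Abcb1a at 1232 and 1692 CPM. The lipid carrier Mfsd2a, present in 72.3% of Fos-high cells, was at 358 CPM in Fos-high cells and 496 CPM in Fos-0 cells, and the transferrin receptor Tfrc, present in 63.3%, at 352 and 446 CPM. In the depth-matched set no carrier was past 2-fold and the median log2 ratio was -0.40. A ratio below 1 was found for 13 of 17 pan-endothelial genes and 16 of 22 Wnt and brain endothelial factors, shares near that of all tested genes. None of 12 junction genes or 22 Wnt and brain endothelial factors was past 2-fold, and Cldn5, itself part of the choice of cells, was at 4404 and 4862 CPM. Of 17 pan-endothelial genes 1 was lower, Vwf, a clotting protein held in Weibel-Palade bodies, at 48.7 and 107 CPM; in the depth-matched set its ratio was 0.526 and no pan-endothelial gene was past 2-fold.

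The genes with the smallest ratios were of another kind. Gm42418 was at 2776 CPM in Fos-high cells and 15873 CPM in Fos-0 cells (ratio 0.175), and AY036118, which also maps to ribosomal RNA repeats, at 234 and 1559 CPM. The mitochondrial leucyl-tRNA synthetase gene Lars2 was at 124 and 481 CPM, the actin-binding adaptor Ivns1abp at 244 and 785 CPM, and the zinc finger gene Zfp950 at 40.3 and 130 CPM. Limited to cells with at most 0.613% of UMIs from Gm42418, a limit set after seeing the data, 98 genes were higher and 92 lower. Ttr, a choroid plexus transcript, was at 8.48 CPM in Fos-high cells and 88.0 CPM in Fos-0 cells, with a UMI in 5.50% and 3.83% of them. Summed erythroid genes were at 4646 CPM in Fos-high and 11620 CPM in Fos-0 cells, and the median hemoglobin share was 0.0190% and 0.0311%. The highest share in a cell was 64.6% and 84.9%. Without cells with at least 1% hemoglobin UMIs, 925 of 928 Fos-high and 4427 of 4462 Fos-0 cells were left. Few barcodes thus carried most of these sums, which do not describe the typical cell of either group. In the depth-matched set the erythroid sum was 235 CPM in Fos-high cells and 4586 CPM in Fos-0 cells, and Ttr turned, with a ratio of 1.31.

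Levels changed stepwise with Fos rather than at the threshold. Cells without the 5 genes were split at Fos + Fosb of 0, above 0 to under 5, 5 to under 10, 10 to under 20, 20 to under 40, and 40 or more per 10000, with 4462, 982, 363, 265, 351 and 577 cells. Jun was at 759, 1539, 3383, 4920, 6200 and 7307 CPM over these steps, so most of its range lay below the threshold, and the last step was 1.18 times the one before. Hspa1a behaved alike, at 442, 1350, 3251, 5287, 7211 and 8000 CPM. Egr1 was at 28.9, 94.3, 207, 283, 360 and 1001 CPM, and its last step was 2.78 times the one before. The last step was 2.33 times the one before for Atf3, 2.06 times for Nr4a1 and 1.86 times for Junb, and 0.978 times for Hsp90aa1. Slco1a4 was lower at each step, at 4387, 3604, 3043, 2432, 2355 and 1988 CPM. Median depth went up along the steps too, at 3598, 5107, 5021, 6584, 7063 and 7019 UMIs, but the highest pair of steps had like depths, and the differences between them in Egr1, Atf3, Nr4a1 and Junb are among cells of like depth.

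**Figure D4:**
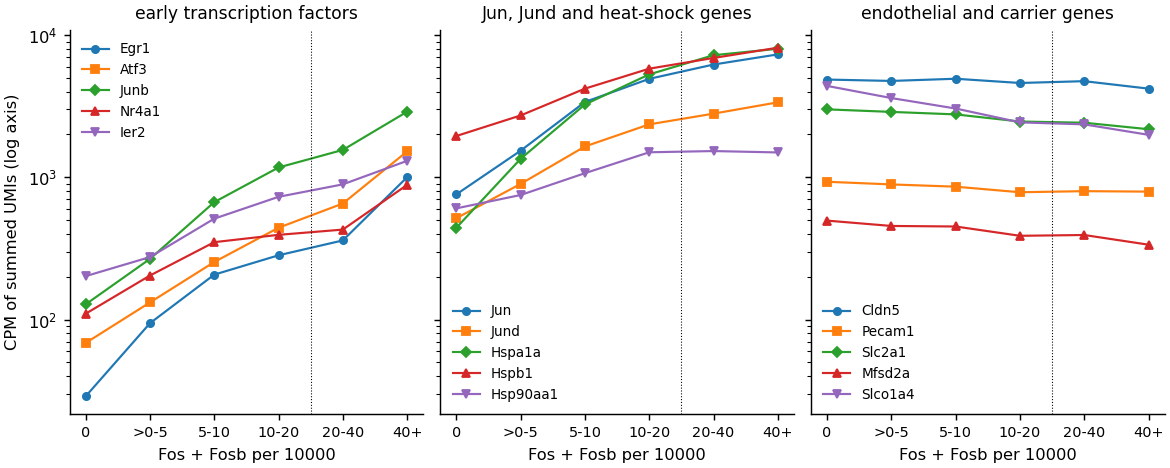
CPM of summed UMIs (log axis) over 6 steps of Fos + Fosb per 10000 (x axis; the dotted line marks the threshold of 20). Egr1, Atf3 and Junb climb through the last step, Jun and Hspa1a flatten near 7307 and 8000 CPM, and Slco1a4 lies at 4387 CPM in the first step and 1988 CPM in the last.

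By the likeness rule, the genes whose log2 CPM over the 6 steps correlated best with Fos + Fosb were Pfkl, Mrfap1, H3f3a, Rpl15 and Gng5 (Pearson r 0.986 to 0.997, over 6 steps of 1 library). Their levels moved little: Pfkl, a glycolytic enzyme gene, was at 60.5 CPM in the first and 90.9 CPM in the last step, and H3f3a, a histone gene, at 923 and 1115 CPM. Fos + Fosb was 0 CPM in the first step by the choice of cells and 239 CPM in the second. On a log scale with 1 CPM added this first rise weighs most, so the ranking favours genes that rise early and then level off. Within the 928 Fos-high cells, the Spearman correlation of UMIs per 10000 with Fos was 0.39 for Junb, 0.35 for Atf3, 0.32 for Egr1, 0.07 for Jun and 0.03 for Hspa1a. That with Hspa1a was 0.41 for Jund, 0.39 for Hspb1, 0.37 for Jun and -0.01 for Egr1. These cells share a library and their own depth, and values under 0.3 in such sparse counts are given only to be complete. They were also chosen by Fos + Fosb, so only the upper range of Fos enters these correlations. A low value here, as for Jun and Hspa1a, says nothing of the range below the threshold.

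The threshold was also reached by cells with UMIs of the excluded vessel genes. Of 68 cells with an Ackr1 UMI (venules) 30.9% reached it (exact 95% binomial interval 20.2 to 43.3), of 113 with Plvap 26.5% (18.7 to 35.7), of 913 with Bmx 19.9% (17.4 to 22.7), of 669 with Gkn3 17.9% (15.1 to 21.1) and of 170 with Lcn2 17.1% (11.7 to 23.6). Of the 7000 cells with none of the 5 genes 13.3% reached it (12.5 to 14.1). A cell can count under several genes, and those with such a UMI were deeper (medians 5495 to 6692 UMIs, against 4340). With cells thinned to 1700 UMIs, leaving out the shallower 727 of the 7000 cells without the 5 genes and 1 to 25 cells of the others, the shares were 34.3% for Ackr1, 26.4% for Plvap, 20.6% for Bmx, 17.7% for Gkn3, 17.8% for Lcn2 and 14.3% for none, where thinning equalises counting but not the underlying difference in RNA content.

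Bulk libraries, which the choice of cells did not use, place these genes among tissues. In bulk RNA, fewer cells with a transcript and less of it per cell cannot be told apart, and brain bulk RNA mixes Fos-high and other cells. Totals were 15907235 to 21792786 counts in brain, 2992101 to 11308897 in lung and 18485600 to 25690571 in liver. Differences were tested with edgeR's quasi-likelihood test, Benjamini-Hochberg adjusted over 13216 genes; a call needed an adjusted p under 0.05 and a log2 fold change of 1 or more in size. Separate animals are not named for these replicates, so p-values measure the spread between libraries. Both comparisons use the same brain libraries.

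Against lung, several of these transcripts were lower in brain. Of all genes, 667 (5.05%) passed as higher and 958 (7.25%) as lower. Of 9 tested AP-1 genes none was higher and 4 were lower, with a median log2 fold change of -1.27 against 0.00 for all genes. Fos was at 661, 262 and 443 CPM in brain and 846, 820 and 684 CPM in lung; the libraries did not overlap, but the difference was not called (log2 fold change -0.74, SE 0.52, edgeR adjusted p = 0.411). Egr1 was at 435, 315 and 303 CPM in brain and 4662, 6588 and 4918 CPM in lung, far apart (log2 fold change -3.90, SE 0.25, edgeR adjusted p = 5.33e-07). Jun, at 631, 451 and 565 CPM in brain and 1342, 1645 and 1378 CPM in lung, was also lower (-1.36, edgeR adjusted p = 0.00858), as was Atf3 (119, 73.2 and 89.9 CPM in brain, 836, 506 and 598 CPM in lung; -2.73, edgeR adjusted p = 0.000201). Hspa1a, at 1558, 484 and 983 CPM in brain and 1181, 522 and 688 CPM in lung, overlapped and was not called (0.39, edgeR adjusted p = 0.677), with a value of -0.02 when brain library 1 was left out. Of 22 other immediate-early factors none was higher and 4 were lower, of 33 genes of the feedback list 1 was higher and 13 lower, and of 17 chaperone genes none was higher and 1 lower. Of the 23 genes of the leading 25 that were tested, 1, Rgs16, was higher and 10 were lower in brain. Without lung library 2 or 3, 444 or 432 genes were higher in brain.

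Against liver, AP-1 genes and many of the leading genes were higher in brain. Of all genes, 985 (7.45%) passed as higher and 1152 (8.72%) as lower. Of the 9 AP-1 genes 6 were higher and none lower (median log2 fold change 1.93, against 0.01 for all genes), of 22 other immediate-early factors 8 were higher and 1 lower, of 33 genes of the feedback list 8 were higher and 5 lower, of 17 chaperone genes 5 were higher and 1 lower, and of the 23 leading genes 13 were higher and 1, Socs3, lower. Fos was at 661, 262 and 443 CPM in brain and 15.2, 51.7 and 102 CPM in liver, with no overlap (log2 fold change 2.83, SE 0.55, edgeR adjusted p = 0.00347). Fosb was at 473, 132 and 290 CPM in brain and 0.757, 28.0 and 25.2 CPM in liver (3.78, SE 1.04, edgeR adjusted p = 0.0351). Jun was at 631, 451 and 565 CPM in brain and 74.9, 83.8 and 193 CPM in liver (2.07, edgeR adjusted p = 0.000325). Every brain library was above every liver library for Fos, Fosb and Jun, and also for Egr1, Nr4a1, Hspa1a and Junb below. How many of all tested genes separate in this way was not counted. Egr1 was at 435, 315 and 303 CPM in brain and 91.2, 109 and 121 CPM in liver (1.51, edgeR adjusted p = 0.000347). Nr4a1 was at 183, 169 and 186 CPM in brain and 9.95, 14.8 and 13.6 CPM in liver (3.59, edgeR adjusted p = 8.10e-06), the closest brain replicates of these genes. Hspa1a was at 1558, 484 and 983 CPM in brain and 140, 118 and 419 CPM in liver (2.03, edgeR adjusted p = 0.0138). Junb was at 61.2, 32.1 and 30.2 CPM in brain and 8.33, 5.06 and 22.5 CPM in liver (1.65, edgeR adjusted p = 0.0282). The Fosb call was lost without brain library 1 or 3, lung library 1 or 3, or liver library 2 or 3, and with the replicate number as a block; the Junb and Hspa1a calls were lost without brain library 1 or liver library 1 or 2. Brain library 1 was the highest brain library for Fos, Fosb, Jun, Atf3, Egr1, Hspa1a and Junb, but not for Nr4a1.

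**Figure D5:**
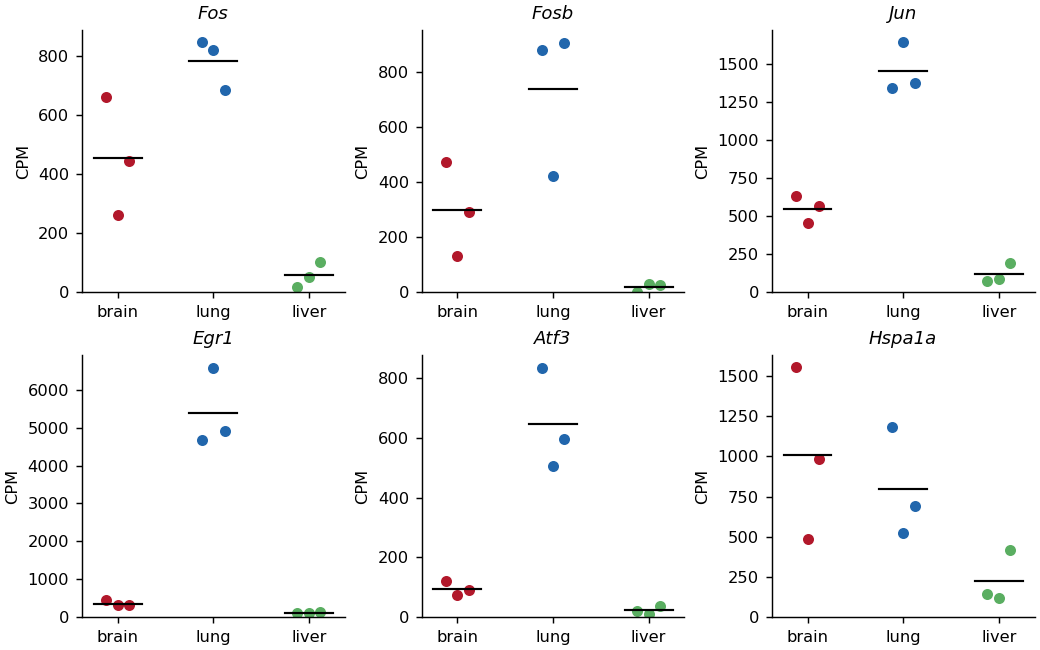
CPM of 6 genes (one panel each, axes from 0) in the 3 bulk libraries of brain, lung and liver; points are libraries and lines are means. Egr1 reaches 6588 CPM in lung and at most 435 CPM in brain, and Fos is lowest in the liver libraries at 15.2 to 102 CPM.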

How the data were processed

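Single-cell values were deposited as UMI counts per gene and barcode; bulk values were unnormalized counts for each gene, per the file headers. The submitters' processing notes list Cell Ranger 1.2.0, HTSeq 0.6.1, SAMtools 1.10.2, bedtools, MACS2, Picard, TopHat and Bowtie2, and tie none to an assay. No cells were clustered. UMIs were summed per group and scaled to CPM; ratios carry exact 95% counting intervals, and genes needed 20 CPM over all filtered cells. Bulk counts were tested with edgeR 4.0.16 (TMM, filterByExpr, robust, all 9 libraries in 1 fit) in R 4.3.3, with DESeq2 1.42.0 as an alternative. Doublets were not removed: Scrublet, through scanpy 1.11.5, marked 0 of 9405 barcodes and so did not work here. Procedures were tested on simulated data. The cells, the 28 gene lists and the rule for named genes (the 25 largest and 15 smallest ratios, up to 6 members of each list by absolute log2 ratio, each AP-1 member, a few barrier genes) were chosen with earlier results of these data known; other genes named were chosen after their values were seen. Depth-matched and Gm42418-limited sets were added after seeing the data. Replicate numbers did not pair the bulk libraries. The ATAC-seq counts were not used.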

Additional observations from a re-analysis of the deposited data

Results flagged for a closer look

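Barcodes left out for lack of a Cldn5 UMI were not part of any comparison, yet some reached the Fos + Fosb threshold: 33 of 197 such barcodes that passed the other filters (16.8%), with Fos at 1546 CPM and Hspa1a at 2748 CPM, against 14.3% of the 8448 filtered cells with Fos at 1279 CPM and Hspa1a at 2465 CPM. Of the 386 barcodes with over 10% mitochondrial UMIs, 1.81% reached it, and of the 494 with under 500 genes none did.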

How the results depend on the processing

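Counts of genes depended on the minimum level and fold: 170 were higher and 364 lower at 5 CPM, 52 and 28 at 100 CPM, and 248 and 825 at a ratio of 1.5. The number lower moved most elsewhere: 287 with cells thinned after and 227 before grouping, 190 with the mean over cells, 233 (from 424 Fos-high cells) without cells with 2 or more UMIs of other cell types, and 192 (from 211 Fos-high cells) among cells of 6000 to under 7000 UMIs. A threshold of 40 left 577 cells. The number higher stayed between 88 and 113 under the changes of cells, thinning and scaling. The thinned share for cells without the 5 genes was 14.3%. Ratios that turned were Fbln5 at 0.270 and Mgp at 0.273 against Fos-0 cells whatever their UMIs of the 5 genes; Fbln5 at 0.696 without cells of other types; Ttr at 1.31 in the depth-matched set; and Fbln5 at 0.379, Mgp at 0.796 and Ttr at 2.65 among cells of 6000 to under 7000 UMIs. The cause was not tested. In bulk RNA, DESeq2 called 1446 genes lower in brain than lung. Leaving out 1 library gave 432 to 824 genes higher and 664 to 1133 lower in brain than lung, and 782 to 977 higher and 901 to 1154 lower than liver; Hspa1a against lung ran between -0.02 (without brain library 1) and 0.77 (without lung library 1). Same-numbered libraries did not deviate together (correlations -0.03 to 0.03 over all pairs), so numbers were not taken to pair them; with the replicate block 624 genes were higher and 816 lower in brain than lung, 872 and 998 than liver, and the log2 fold change of Fosb against liver was 3.80 and no longer called.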

Other observations

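Gene groups singled out after their values were seen moved together and get no test. Of 83 tested ribosomal protein genes, 81 had a ratio above 1, Fos-high over Fos-0, against 32.2% of all tested genes, although none passed 2-fold; their median log2 ratio was 0.61, and 0.41 in the depth-matched set. Of 87 zinc finger genes named Zfp (without the Zfp36 family), 78 had a ratio below 1, 9 were at least 2-fold lower and 1 higher, with a median log2 ratio of -0.46, and -0.41 in the depth-matched set. Of 13 mitochondrially encoded genes 12 had a ratio below 1.

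Most higher genes, 57 of 102, stood on none of the 5 early-response and heat shock lists. The inhibitors of differentiation Id1 and Id3 were at 2714 and 2181 CPM in Fos-high cells, against 1140 and 1038 CPM in Fos-0 cells. Gem, a small GTP-binding protein, and Rgs16, which restrains heterotrimeric G protein signalling, were at 63.7 and 64.3 CPM in Fos-high cells, against 5.91 and 6.15 CPM in Fos-0 cells. Plk2 was at 588 and 229 CPM, and the vasodilator peptide gene Adm at 77.0 and 19.5 CPM. In the depth-matched set the ratios were 11.5 for Gem, 11.6 for Rgs16 and 2.90 for Plk2.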
